A study of Mus musculus with 42 samples.

Results

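Fatty acid uptake and binding proteins are described here across 6 groups of mouse livers. The members are 10 genes taken by symbol from the deposited tables, Lpl, Cd36, Slc27a1, Slc27a2, Slc27a4, Slc27a5, Fabp1, Fabp2, Fabp5 and Fabp7, out of 19732 gene names listed in all. All 10 were listed in each of the 6 tables and all 10 passed the filter on low values in each. Liver RNA of 42 male C57BL/6J mice was sequenced, 1 library per mouse and 7 mice per group. The ChemR23 knockout (KO) was made by CRISPR/Cas9 editing, and wildtype (WT) littermates served as controls. ChemR23 is a receptor of resolvin E1 (RvE1), a lipid mediator derived from eicosapentaenoic acid, and it also binds chemerin. It is not the only receptor, since the paper names BLT1 as a likely route for RvE1 without ChemR23. WT lean and KO lean mice ate a lard diet with 10% of its energy as fat, and the 4 obese groups ate one with 60%, from 6 weeks of age and for 15 weeks. WT obese+RvE1 and KO obese+RvE1 mice received 300 ng RvE1 by intraperitoneal injection on each of 4 days, and the other 4 groups received an ethanol and PBS vehicle. All livers were taken on day 5 after a fast. Each liver is a mixture of cells, so fewer cells of a type and less RNA per cell cannot be told apart.

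Fatty acids reach the hepatocyte from the blood, either released from lipoprotein triglyceride by lipoprotein lipase, the product of Lpl, or as albumin-bound acids set free from adipose tissue. CD36 is a membrane glycoprotein that binds long-chain fatty acids at the cell surface and is low in healthy hepatocytes. The Slc27a genes encode fatty acid transport proteins, which are membrane proteins with acyl-CoA synthetase activity. Slc27a2 and Slc27a5 are the forms typical of liver, and Slc27a5 also activates bile acids, while Slc27a1 is best known from muscle and fat and Slc27a4 from intestine and skin. Inside the cell the small cytosolic fatty acid binding proteins (FABPs) carry the acids between membranes and organelles. Fabp1 is the abundant liver form, Fabp2 the intestinal form, Fabp5 the epidermal form and Fabp7 the brain form.

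The genes lie at separate places of the mouse genome. In the GENCODE M21 annotation of GRCm38, the build also called mm10, Fabp1 spans chr6:71199827-71205023 on the plus strand, Fabp2 chr3:122895072-122899506 on the plus strand, Fabp5 chr3:10012548-10016607 on the plus strand and Fabp7 chr10:57784881-57788450 on the plus strand. Cd36 spans chr5:17781690-17888801 on the minus strand and Lpl chr8:68880491-68907448 on the plus strand. Slc27a1 spans chr8:71568882-71587302, Slc27a2 chr2:126552407-126588243 and Slc27a4 chr2:29802634-29817522, all on the plus strand, and Slc27a5 spans chr7:12988346-12998192 on the minus strand. All 10 are annotated as protein coding.

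Fabp1, Fabp2 and Cd36 are the members that were called together in the comparison of lean genotypes given later, and their upstream sequences are shown for that reason. The sequences are from RefSeq promoter windows on GRCm38.p6, which hold 250 bases before the start. They are printed 5′ to 3′ on the strand of the gene, and capitals mark matches to AGGTCA, the half-site that nuclear receptors such as the PPARs bind, or to AGGNCANAGGNCA, 2 half-sites in direct repeat with 1 base between them. Both strands were searched, and the match in Fabp1 belongs to both motifs. The window of Fabp1 is chr6:71199629-71199826 and holds 198 bases, since 52 bases that overlap an annotated exon were left out. The window of Fabp2 is chr3:122894822-122895071 and that of Cd36 chr5:17835897-17836146, upstream of an internal start of a gene that has several.
Fabp1: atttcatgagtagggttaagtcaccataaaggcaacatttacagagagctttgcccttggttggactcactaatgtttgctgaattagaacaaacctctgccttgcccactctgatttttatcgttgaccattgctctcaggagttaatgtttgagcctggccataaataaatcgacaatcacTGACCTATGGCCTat
Fabp2: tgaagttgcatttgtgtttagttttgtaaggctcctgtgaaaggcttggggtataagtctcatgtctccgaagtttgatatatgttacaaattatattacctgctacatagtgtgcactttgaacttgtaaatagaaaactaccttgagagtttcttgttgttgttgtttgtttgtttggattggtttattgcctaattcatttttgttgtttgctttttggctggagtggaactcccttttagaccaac
Cd36: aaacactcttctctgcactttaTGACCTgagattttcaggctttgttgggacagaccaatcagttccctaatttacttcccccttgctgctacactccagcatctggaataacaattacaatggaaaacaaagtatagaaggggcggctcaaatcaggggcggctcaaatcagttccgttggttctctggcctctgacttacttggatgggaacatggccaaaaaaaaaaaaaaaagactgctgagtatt

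The match in Fabp1, TGACCTATGGCCT, begins 67 bases before the RefSeq start, and that in Cd36 begins 228 bases before it. The half-site stood in 14.0% of 32851 such windows of all genes. It stood in at least 1 window of 4 of the 7 members that have one, Fabp1, Cd36, Fabp7 and Slc27a2. These 7 members have 9 windows, so a share of genes and a share of windows are unlike measures here. The direct repeat stood in 0.338% of all windows and in that of Fabp1 alone among the 7 members. A match is a string of letters and not a measured site of binding, and no match in Fabp2 says only that these letters are not in its window. Windows of Fabp5, Slc27a5 and Lpl were not used here.

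The libraries held 15960120 to 43755273 reads on listed genes (median 24253532). All 6 hepatocyte markers were listed, and their summed normalized counts were between 991061 and 1784757 in the livers of the diet comparisons. Cmklr1, the gene that encodes ChemR23, served as a check of the labels. It was between 9.72 and 22.6 normalized counts in KO lean against 40.8 to 114 in WT lean mice, and between 5.08 and 23.2 in KO obese against 33.3 to 102 in WT obese mice, so the genotypes did not overlap under either diet. Mouse identifiers open with a number whose meaning the labels do not state. No number stands in more than 1 group, apart from number 23, which opens 1 KO obese and 2 KO obese+RvE1 identifiers, and the correlation of mice within a number was between 0.0643 and 0.373 across the fits. The values with that number as a random block are therefore given beside calls that it ends.

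Levels were compared between genes as RPKM, reads scaled to library size and to the length of the transcript, with the mean and SD over 42 mice. Fabp1 was the most abundant member, at 6563 ± 2661, and lay above every other member in 42 of 42 mice. Slc27a2 followed at 582 ± 109, Slc27a5 at 251 ± 43.4 and Fabp2 at 191 ± 75.6. Slc27a5 and Fabp2 changed places between mice, since Slc27a5 was higher in 32 of 42 mice only. Fabp1 made up between 96.3% and 97.6% of the summed level of the 4 FABP members on average in each group.

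The other 6 members were far lower on the same scale. Cd36 was at 27.7 ± 23.1, Slc27a4 at 9.73 ± 1.87, Fabp5 at 8.97 ± 13.6, Lpl at 5.34 ± 2.74, Slc27a1 at 3.99 ± 1.42 and Fabp7 at 3.66 ± 1.67. The order of the last 3 did not hold beyond their spread, with Slc27a1 above Fabp7 in 25 of 42 mice and Lpl above Slc27a1 in 30. The places of Cd36 and Fabp5 depended on the diet. Fabp5 ranked 5 of 10 in both lean groups, with 30.5 ± 17.4 RPKM (SD, n = 7) for WT lean livers and 16.6 ± 10.2 RPKM (SD, n = 7) for KO lean livers. It ranked 10 in all 4 obese groups, where its means were between 1.09 and 2.27. Cd36 ranked 7 in WT lean and 6 in KO lean mice and 5 in all 4 obese groups.

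**Figure D1:**
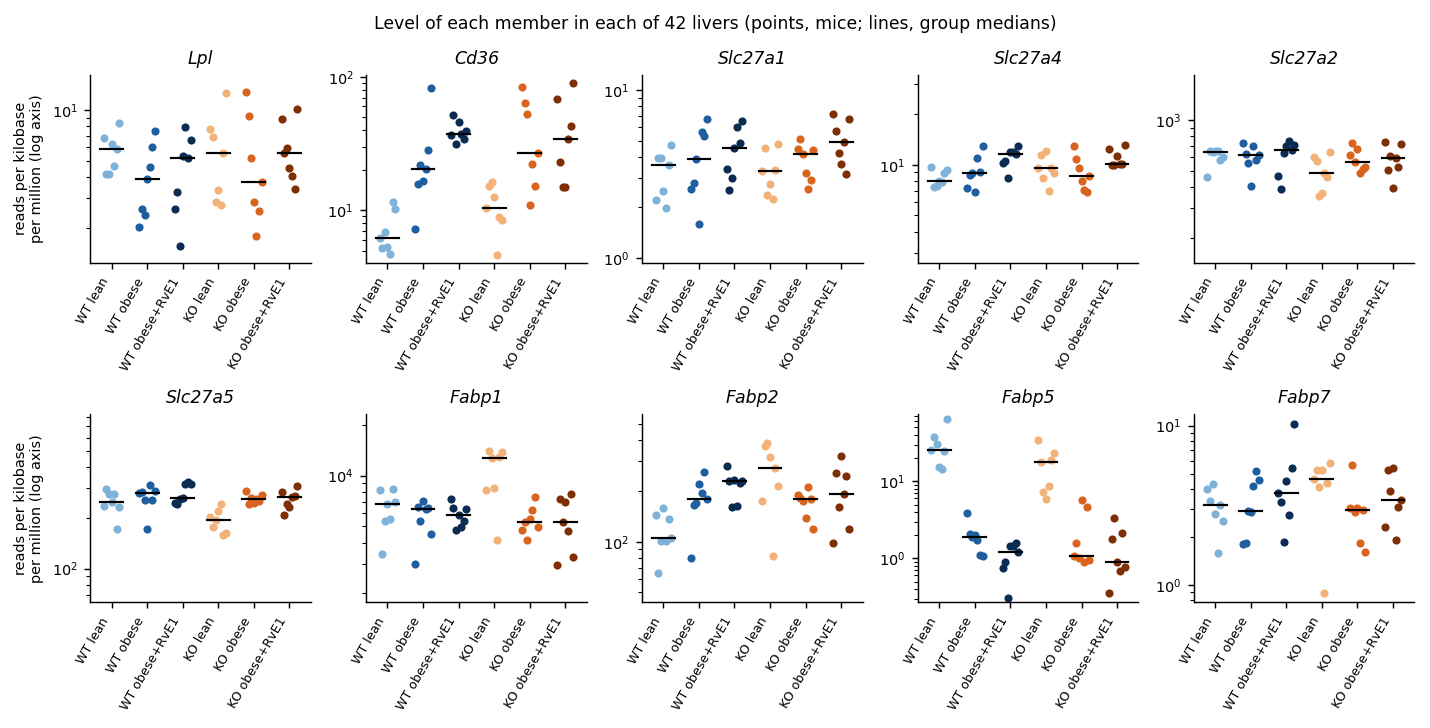
Level of each member in RPKM (log axis, each panel with its own range) in 42 livers, 7 mice per group, with points for mice and lines for group medians. Fabp5 is the member whose lean and obese mice stand farthest apart, Cd36 is higher in most obese mice, and Fabp1 stays the most abundant member, with medians above all others, in every group.

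The effect of the high fat diet in WT mice was asked first. In WT obese against WT lean mice, Cd36 rose and Fabp5 fell, and the other 8 members were not called. A gene was called when limma, on log2(normalized count + 1), gave a Benjamini-Hochberg adjusted p under 0.1 and the fold change exceeded 1.5. Here log2FC stands for the log2 fold change, the group named first minus the second. Of 14012 genes tested 3.8% were called, 2.26% higher and 1.53% lower. The median log2FC was 0.01 over the 10 members and 0.0030 over all genes.

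Lpl, which hydrolyses lipoprotein triglyceride, had normalized counts with a low of 211, a median of 363 and a high of 539 in WT obese mice, and 392, 597 and 630 in WT lean mice. The highest 4 lean mice lay above all obese mice, the lowest 4 obese mice lay below all lean mice, and the other 6 overlapped. Limma gave a log2FC of -0.65 (SE 0.22, adjusted p = 0.122), and Lpl was called lower after the length and GC correction (adjusted p = 0.0998) and without WT obese mouse 6R (adjusted p = 0.0668).

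Cd36, the surface receptor, had a low of 636, a median of 1487 and a high of 4885 normalized counts in WT obese mice. In WT lean mice these values were 366, 470 and 976. Obese mouse 22L alone lay within the lean range, and the other 6 were above all lean mice. This was a log2FC of 1.59 (SE 0.33, adjusted p = 0.014), a 3.01-fold higher level with a 95% interval from 1.86 to 4.87. The highest obese mouse, 6R, stood apart from the next at 1825, and without it the log2FC was 1.31 (adjusted p = 0.0106).

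None of the 4 fatty acid transport protein genes was called between the diets in WT mice. Slc27a1 had a log2FC of 0.18 (95% interval -0.31 to 0.67), Slc27a4 of 0.063 (-0.14 to 0.26), Slc27a2 of -0.086 (-0.42 to 0.25) and Slc27a5 of 0.024 (-0.28 to 0.33). Their obese and lean mice overlapped in each case. For the abundant Slc27a2 the range was 31218 to 55131 normalized counts in obese and 30014 to 44074 in lean mice.

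Fabp5, the epidermal binding protein, had the widest change of the members. Its normalized counts had a low of 18.7, a median of 40.0 and a high of 100.04 in WT obese mice, and 328, 608 and 1174 in WT lean mice. Every obese mouse lay below every lean mouse, which held for 0.564% of all genes in this direction. The fitted log2FC was -3.92 (SE 0.34, adjusted p = 1.8e-05), a 15.1-fold lower level, and no gene of the comparison had a smaller adjusted p. Within the obese mice the level followed the identifier numbers, with 18.7 to 32.7 in 3 mice of number 6, 40.0 to 52.8 in 3 of number 27 and 100.04 in mouse 22L. With the identifier number taken as a random block the adjusted p was 0.00016.

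Among the other binding proteins, Fabp1 had a low of 42535, a median of 66920 and a high of 103926 in WT obese mice and 43318, 70455 and 113491 in WT lean mice, so the groups overlapped almost fully. Its log2FC was -0.25 (95% interval -0.75 to 0.26, adjusted p = 0.635). Fabp2 had 2000, 3524 and 5615 in obese and 1433, 2256 and 3538 in lean mice. Of the obese mice 3 lay above all lean mice, and the log2FC was 0.56 (SE 0.22, adjusted p = 0.192). It passed without WT obese mouse 22L (adjusted p = 0.0625). Fabp7 was between 35.7 and 87.2 in obese and between 32.3 and 87.7 in lean mice, a log2FC of -0.0042 (95% interval -0.52 to 0.51).

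**Figure D2:**
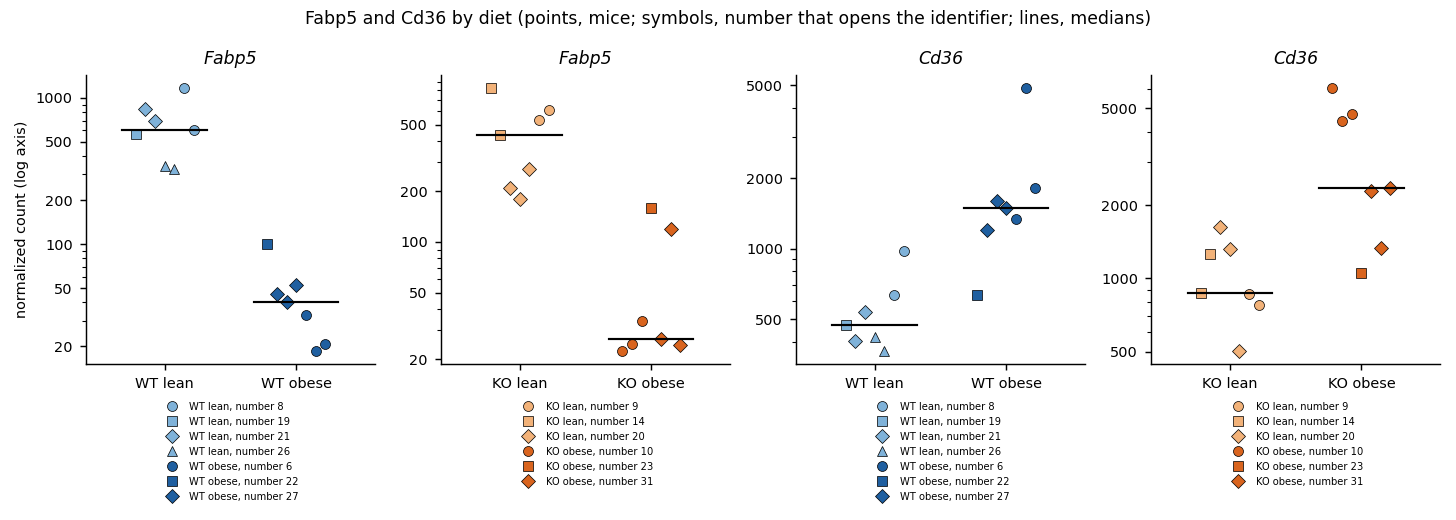
Normalized counts (log axis) of Fabp5 and Cd36 in lean and obese mice of each genotype, 7 mice per group, with points for mice, symbols for the number that opens the identifier and lines for medians. For Fabp5 the obese mice lie below all lean mice in both genotypes, and for Cd36 the obese groups are higher with some overlap, mice of number 10 being the highest of the KO obese group.

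The diet comparison was repeated in KO mice, which share no mouse with the WT comparison. In KO obese against KO lean mice Cd36 rose, and Fabp5 and Fabp1 fell. Of 14213 genes tested 10.4% were called, 4.97% higher and 5.42% lower. The median log2FC was -0.31 over the 10 members and -0.0021 over all genes.

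Lpl had a low of 222, a median of 398 and a high of 1120 normalized counts in KO obese mice and 344, 647 and 1400 in KO lean mice. Of the obese mice 3 lay below all lean mice. The log2FC was -0.40 (SE 0.36, adjusted p = 0.484).

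Cd36 had a low of 1048, a median of 2355 and a high of 6074 in KO obese and 504, 871 and 1624 in KO lean mice. Of the obese mice 5 lay above all lean mice and the remaining 2 overlapped with them. Limma gave a log2FC of 1.46 (SE 0.36, adjusted p = 0.0175), a 2.75-fold higher level with a 95% interval from 1.62 to 4.68. The 3 obese mice of number 10 had 4428 to 6074, the 3 of number 31 had 1332 to 2355 and mouse 23L had 1048, and with the number as a random block the adjusted p was 0.0743.

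None of the 4 transport protein genes was called in KO mice. Slc27a5 was between 12044 and 17859 normalized counts in obese and between 9820 and 17791 in lean mice, a log2FC of 0.29 (SE 0.15, adjusted p = 0.186). Slc27a4 had a log2FC of -0.23 (SE 0.12, adjusted p = 0.21), with 3 obese mice below all lean mice. Slc27a2 had one of 0.11 (95% interval -0.20 to 0.42) and Slc27a1 one of 0.076 (-0.24 to 0.39).

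Fabp5 had a low of 22.5, a median of 26.4 and a high of 159 normalized counts in KO obese and 179, 434 and 829 in KO lean mice. The groups did not overlap, which held for 1.11% of all genes in the lower direction. This was a log2FC of -3.15 (SE 0.47, adjusted p = 0.002), an 8.86-fold lower level. The 3 KO lean mice of number 20 had 179 to 273 and the other 4 had 434 to 829. The KO obese mice did not follow the number, since those of number 31 ran from 24.4 to 119. With the number as a random block the adjusted p was 0.0171.

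Fabp1, the most abundant member, had a low of 55455, a median of 71051 and a high of 106275 in KO obese and 73829, 188932 and 206925 in KO lean mice. All but 1 of the lean mice, 20R, lay above every obese mouse. The fitted log2FC was -1.02 (SE 0.26, adjusted p = 0.0188), a 2.03-fold lower level, and the adjusted p was 0.0761 with the identifier number taken as a random block. Fabp2 had 2995, 3868 and 6146 in obese and 2536, 7493 and 10941 in lean mice, with 4 lean mice above all obese mice and 20R below them all. Its log2FC was -0.63 (SE 0.27, adjusted p = 0.119), and edgeR (-0.74, adjusted p = 0.0618) and DESeq2 (-0.74, adjusted p = 0.0276) called it, as did limma without KO obese mouse 31L (adjusted p = 0.0915) or KO lean mouse 14-2L (adjusted p = 0.0843).

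Fabp7 had 36.7, 61.8 and 108 normalized counts in KO obese mice and 25.2, 108 and 141 in KO lean mice. Mouse 20R was the lowest of all 14, and 3 lean mice were the highest. The log2FC was -0.60 (SE 0.32, adjusted p = 0.216), and DESeq2 called it (-0.69, adjusted p = 0.0691). Without KO lean mouse 20R limma called 5 members, with Fabp2 at -0.85 (adjusted p = 0.0102) and Fabp7 at -0.91 (adjusted p = 0.00624) added.

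Whether the diet effect differed between the genotypes was tested as the difference of both log2FC values, KO minus WT, over the 28 vehicle mice. No member passed an adjusted p of 0.1 in limma, where 0.00718% of 13924 genes passed, and 2 members had an unadjusted p under 0.05, as did 18.3% of all genes. For Fabp5 the difference was 0.77 (95% interval -0.50 to 2.04) and for Cd36 -0.13 (-1.20 to 0.94). Both intervals are wide and include 0. The 2 with an unadjusted p under 0.05 were Fabp2, at -1.19 (SE 0.37, adjusted p = 0.141), and Fabp1, at -0.77 (SE 0.35, adjusted p = 0.241). Fabp2 passed in DESeq2 (-1.31, adjusted p = 0.0322), where 926 genes passed in place of 1, and edgeR passed no member. Without KO lean mouse 20R, Fabp2 (-1.41, adjusted p = 0.0201), Fabp1 (-0.95, adjusted p = 0.0729) and Fabp7 (-0.90, adjusted p = 0.0869) passed, and without WT obese mouse 22L Fabp2 did (-1.33, adjusted p = 0.0671).

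**Figure D3:**
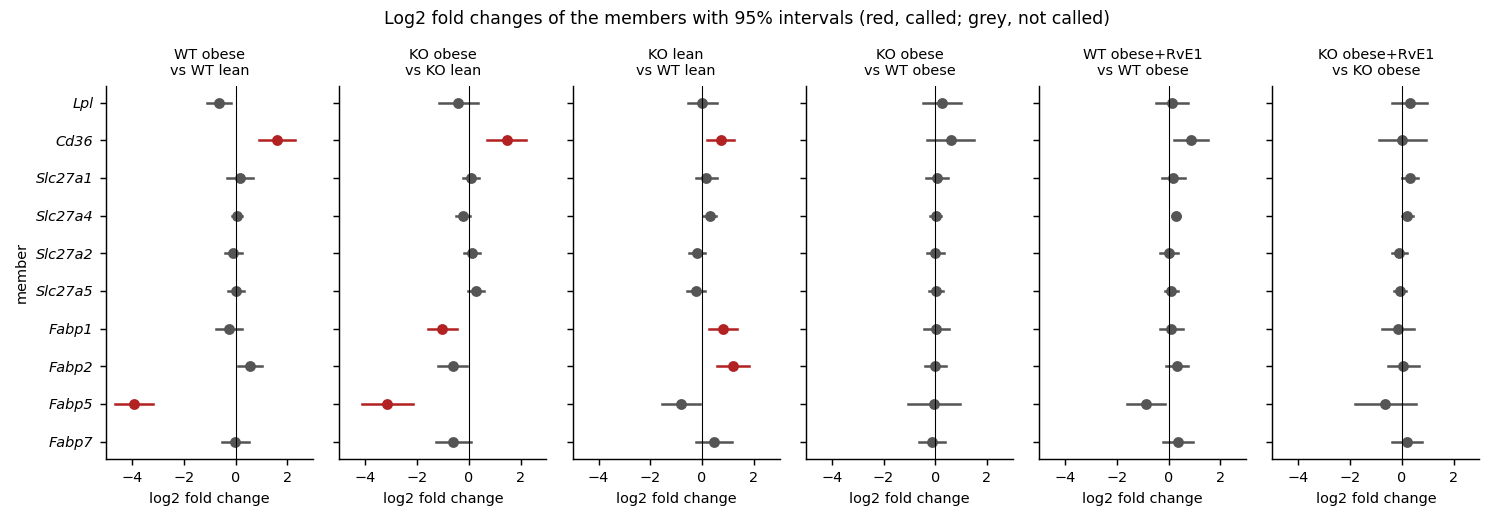
Log2FC values of the 10 members (points) with 95% intervals (lines) in the 6 comparisons, the group named first minus the second, with called members in red. Calls stand in the diet comparisons (2 in WT, 3 in KO) and in the comparison of lean genotypes (3), and the other comparisons have 0.

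The genotypes were next compared within each diet. These comparisons share their mice with the diet comparisons, so their values are not independent of those above. In KO lean against WT lean mice 3 members were called, Fabp2, Fabp1 and Cd36, all higher in KO lean mice. Of 13031 genes tested 6.65% were called, 3.94% higher and 2.7% lower. The median log2FC was 0.23 over the members and -0.00042 over all genes. An unadjusted p under 0.05 was found for 5 members and for 26.8% of all genes. When limma took the identifier number as a random block, 0 members and 3 of all genes were called, and 4 members had an unadjusted p under 0.05. The edgeR and DESeq2 tests called 3 members each, and 874 and 948 of all 13031 genes.

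Fabp2 had a low of 2311, a median of 6801 and a high of 9936 normalized counts in KO lean mice. In WT lean mice these were 1486, 2351 and 3688. All KO lean mice except 20R lay above all WT lean mice. Limma gave a log2FC of 1.19 (SE 0.29, adjusted p = 0.0393), a 2.28-fold higher level with a 95% interval from 1.48 to 3.51. With the random block the adjusted p was 0.146.

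Fabp1 had 67259, 171534 and 187910 in KO lean and 44931, 73616 and 118026 in WT lean mice. Of the KO mice 5 lay above all WT mice. This was a log2FC of 0.81 (SE 0.26, adjusted p = 0.0661). The call was lost with the random block (adjusted p = 0.164), with reads scaled to equal totals (0.108) and with a correction for gene length and GC content (0.147). It was also lost without KO lean mouse 14RL, 20-2L, 20L, 9L or 9RL or WT lean mouse 21L or 26R, with adjusted p between 0.110 and 0.140.

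Cd36 had 459, 792 and 1475 in KO lean and 383, 489 and 1015 in WT lean mice. Of the KO mice 3 lay above all WT mice and 3 WT mice lay below all KO mice. The fitted log2FC was 0.71 (SE 0.25, adjusted p = 0.0817). The call was lost with the random block (adjusted p = 0.186), with equal totals (0.156) and with the length and GC correction (0.154). It was lost as well without KO lean mouse 14RL, 20-2L, 20L or 9L or any WT lean mouse but the 2 of number 8, with adjusted p between 0.105 and 0.165.

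The other members were not called between lean genotypes. Fabp5 had a low of 162, a median of 394 and a high of 753 in KO lean and 342, 632 and 1214 in WT lean mice, a log2FC of -0.83 (SE 0.35, adjusted p = 0.137), and it passed without KO lean mouse 14-2L (-1.02, adjusted p = 0.0677). Fabp7 was higher in 5 of 7 KO mice than in any WT mouse but lowest of all in 20R, at 23.0, and its log2FC of 0.48 (adjusted p = 0.371) became 0.78 (adjusted p = 0.0188) without that mouse. Slc27a4 had one of 0.30 (SE 0.12, adjusted p = 0.112), with 5 WT mice below all KO mice. Slc27a2 (-0.19, 95% interval -0.50 to 0.12), Slc27a5 (-0.23, -0.58 to 0.11), Slc27a1 (0.16, -0.24 to 0.56) and Lpl (0.0053, -0.55 to 0.56) had intervals that include 0.

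Some markers of other liver cells were called in this comparison. Of 7 Kupffer cell and macrophage markers tested 6 were called higher in KO lean mice, and their summed normalized counts were between 6475 and 13707 in KO lean against 2658 to 6087 in WT lean mice, with no overlap. With the random block 0 of the 7 were called, the 6 having adjusted p between 0.138 and 0.160. Cd5l (log2FC 1.32, adjusted p = 0.0247), Vsig4 (0.84, adjusted p = 0.0308) and Timd4 (0.77, adjusted p = 0.0308), all genes of resident macrophages, had the smallest adjusted p. The same markers were between 3981 and 5390 in KO obese and 7136 and 15116 in KO lean mice in the table of those groups, where 4 of 7 were called lower, with and without the random block. In WT mice 0 of 7 were called between the diets, with 2878 to 5148 in obese and 2550 to 5852 in lean mice. Fcgr2b (0.64, adjusted p = 0.0463), 1 of 6 sinusoidal endothelial markers, and Ccr2 (0.78, adjusted p = 0.0697), 1 of 5 recruited macrophage markers, were called higher in KO lean mice and Krt19 (-0.62, adjusted p = 0.0745), 1 of 4 cholangiocyte markers, lower, and 0 of these 3 were called with the random block. Summed over each list the groups overlapped, with 3067 to 4705 in KO lean and 2390 to 3720 in WT lean mice for the endothelial markers, 728 to 1530 and 778 to 1226 for the recruited macrophage markers and 151 to 265 and 104 to 333 for the cholangiocyte markers. In the KO diet comparison 2 of 6 endothelial markers were called lower, Clec4g (-0.73, adjusted p = 0.0425) and Fcgr2b (-0.66, adjusted p = 0.0235). Of 6 stellate cell markers 1 was called lower, Des (-0.59, adjusted p = 0.0704), and none of these calls held with the block. The median log2FC was -0.17 over the endothelial list and 0.11 over the stellate cell list. Of 7 recruited macrophage markers Cd9 alone was called between the diets, lower in WT obese (-1.47, adjusted p = 0.0019) and KO obese mice (-0.84, adjusted p = 0.0352). It was called with and without the block. The median log2FC of that list was 0.14 in WT and 0.25 in KO mice, so the list did not follow Cd9. Of 5 enterocyte markers Apoa4, which liver also expresses, was the 1 listed in the table of lean mice, with 43677.7 to 210632.4 normalized counts in KO lean and 26863.4 to 141480.6 in WT lean mice. The part of these markers in the results for Fabp1, Fabp2 and Cd36 was not tested.

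**Figure D4:**
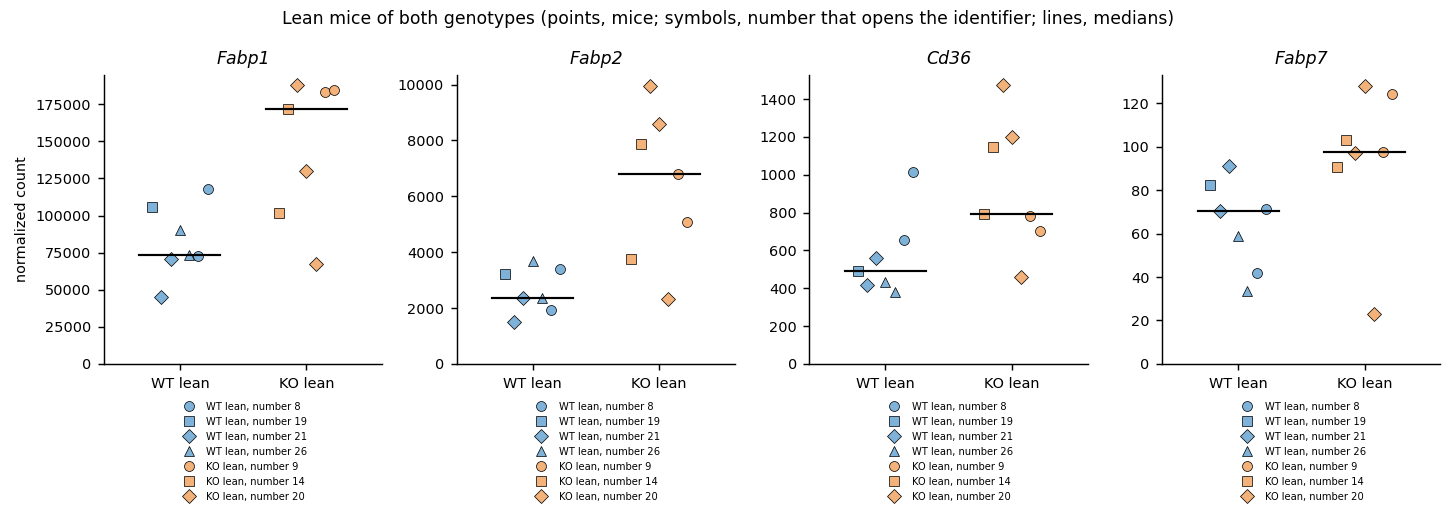
Normalized counts of Fabp1, Fabp2, Cd36 and Fabp7 in WT lean and KO lean mice, 7 per group, with points for mice, symbols for the number that opens the identifier and lines for medians. KO lean medians are higher in all 4 panels, and KO lean mouse 20R, a diamond, is the lowest of its group in each.

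In obese mice no member was called between the genotypes. Limma called 0.0141% of 14162 genes for KO obese against WT obese mice, and 0 members had an unadjusted p under 0.05, against 2.25% of all genes. The edgeR and DESeq2 tests also called 0 members, and 2 and 3 of all genes. Adjusted p of the members was 1.00 throughout. The member with the largest log2FC was Cd36, at 0.59 (95% interval -0.32 to 1.49), with a low of 1005, a median of 2265 and a high of 5915 normalized counts in KO obese and 698, 1636 and 5357 in WT obese mice.

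The other members had log2FC values between -0.11 and 0.26 in obese mice. For Fabp1 the difference was 0.038 (95% interval -0.44 to 0.52), with 54003 to 102464 normalized counts in KO obese and 46662 to 114327 in WT obese mice. Fabp2 differed by 0.0036 (-0.41 to 0.42) and Fabp5 by -0.055 (-1.06 to 0.95). The interval of Fabp5 is the widest, since 2 KO obese mice lay above all WT obese mice while the KO median of 25.2 was below the WT median of 44.2.

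RvE1 was then compared with vehicle in obese mice of each genotype. No member was called in WT mice, where limma called 0.0% of 13085 genes, 6.08% had an unadjusted p under 0.05, edgeR called 1 gene and DESeq2 15. Of the members 3 had an unadjusted p under 0.05, Cd36, Slc27a4 and Fabp5, each with an adjusted p of 0.772. The mice of both groups carry different identifier numbers, so number and treatment cannot be told apart.

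Cd36 had a low of 2670, a median of 3320 and a high of 5073 normalized counts in WT obese+RvE1 mice and 746, 1745 and 5723 in WT obese mice. Of the vehicle mice 6 lay below all RvE1 mice and mouse 6R lay above them all. The log2FC was 0.88 (SE 0.31), and without 6R it was 1.16 (adjusted p = 0.106). Slc27a4 had 1046, 1128 and 1223 in RvE1 mice and 815, 914 and 1076 in vehicle mice, with 6 RvE1 mice above all vehicle mice. Its log2FC of 0.28 (SE 0.076) is a 1.21-fold higher level.

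Fabp5 had 9.40, 25.5 and 35.9 in WT obese+RvE1 mice and 21.9, 47.2 and 117 in WT obese mice, a log2FC of -0.87 (SE 0.35). Of the vehicle mice 5 lay above all RvE1 mice. The log2FC values of Fabp2 (0.32), Fabp7 (0.36), Slc27a1 (0.18), Lpl (0.14), Fabp1 (0.10), Slc27a5 (0.10) and Slc27a2 (0.024) had 95% intervals that include 0.

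In KO mice limma again called 0.0% of 14207 genes between RvE1 and vehicle, with 8.3% at an unadjusted p under 0.05, and edgeR called 0 genes and DESeq2 14, of which 0 were members. Slc27a4 was the 1 member with an unadjusted p under 0.05. It had a low of 1026, a median of 1062 and a high of 1188 normalized counts in KO obese+RvE1 and 722, 923 and 1127 in KO obese mice, and 6 vehicle mice lay below all RvE1 mice. Limma gave a log2FC of 0.22 (SE 0.095, adjusted p = 0.579). Slc27a1 had one of 0.31 (SE 0.15, adjusted p = 0.596), with 4 RvE1 mice above all vehicle mice.

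Cd36 had 1314, 3014 and 6133 in KO obese+RvE1 and 1056, 2376 and 6190 in KO obese mice, so the ranges were nearly the same. Its log2FC was 0.027 (95% interval -0.88 to 0.94). For Fabp5 it was -0.64 (95% interval -1.82 to 0.54, adjusted p = 0.756), with 4 RvE1 mice below all vehicle mice.

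The RvE1 effect was not shown to differ between the genotypes for any member, with adjusted p of 1.00 throughout and 0 members at an unadjusted p under 0.05, against 2.38% of all genes. The difference KO minus WT was -0.85 for Cd36 (95% interval -2.01 to 0.30), 0.23 for Fabp5 (-1.19 to 1.65) and -0.063 for Slc27a4 (-0.29 to 0.17). An adjusted p under 0.1 was found for 0.0% of 13059 genes, and edgeR and DESeq2 also passed 0 members.

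**Figure D5:**
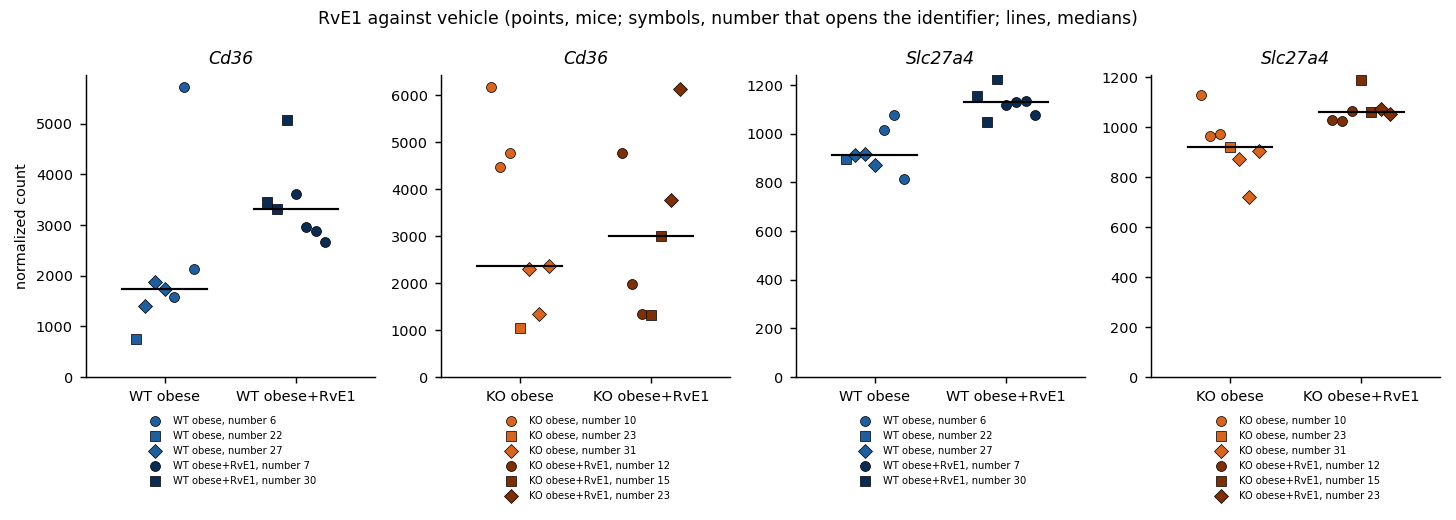
Normalized counts of Cd36 and Slc27a4 in obese mice given vehicle or RvE1, by genotype, 7 mice per group, with points for mice, symbols for the number that opens the identifier and lines for medians. In WT mice 6 of 7 vehicle mice lie below all RvE1 mice for both genes, and in KO mice this holds for Slc27a4 and not for Cd36.

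Genes that act beside the members were counted from lists. In WT obese against WT lean mice 0 of 11 LPL partners, inhibitors and related lipases were called. In KO mice 3 of 11 were called lower on the high fat diet, Apoa5 (log2FC -0.73, adjusted p = 0.0132), an activator of lipolysis, Apoc4 (-0.61, adjusted p = 0.0364), an apolipoprotein, and Angptl4 (-0.81, adjusted p = 0.0526), an inhibitor of lipoprotein lipase. The median log2FC of this list was -0.29 in KO mice, beside -0.0021 over all genes. With the random block Apoa5 alone was called (adjusted p = 0.0669). Fabp4, the adipocyte binding protein and the 1 tested gene of the other FABP family, was not called in any comparison, with adjusted p of at least 0.116. It was also the 1 adipocyte marker listed in 5 of the 6 tables, with normalized counts between 61.4 and 238 in the WT diet table.

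Acyl-CoA synthetases trap the imported acids as CoA esters. Of 5 synthetases and other Slc27a genes tested, 1 was called lower in WT obese mice, Acsl5 (log2FC -0.60, adjusted p = 0.0332), and 0 in KO mice. The median log2FC of this list was -0.54 in WT and -0.22 in KO mice. Acsl1 in WT (-0.54, adjusted p = 0.0896) and Acsl5 in KO mice (-0.33, adjusted p = 0.0491) passed the adjusted p and not the fold threshold. Of 11 other uptake and acyl-CoA binding proteins, 1 was called higher in WT obese mice, Vldlr (1.19, adjusted p = 0.0419), a lipoprotein receptor. In KO obese mice 2 were called higher, Lrp1 (0.59, adjusted p = 0.0617), a remnant receptor, and Vldlr (1.33, adjusted p = 0.0681), and Acbd4 (-0.73, adjusted p = 0.0303), an acyl-CoA binding protein, was called lower. In KO lean mice Cav2 (0.79, adjusted p = 0.0391), a caveolin, and Acbd4 (0.91, adjusted p = 0.046) were called higher and Lrp1 (-0.74, adjusted p = 0.0509) lower than in WT lean mice. With the random block 0 of these 8 calls of synthetases and uptake proteins held, with adjusted p between 0.125 and 0.215.

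PPARA is the nuclear receptor that drives fatty acid oxidation genes in fasted liver, and Fabp1 and Cd36 are known among its targets. Of 18 further PPARA target genes 6 were called lower and 0 higher in WT obese mice, and 8 lower and 0 higher in KO obese mice. In WT mice the smallest adjusted p belonged to Cyp4a31 (log2FC -2.76, adjusted p = 0.0025), Ehhadh (-1.48, adjusted p = 0.0029) and Acot1 (-1.39, adjusted p = 0.0072). In KO mice it belonged to Acot1 (-1.53, adjusted p = 0.0042), Ehhadh (-1.81, adjusted p = 0.0084) and Cyp4a31 (-2.40, adjusted p = 0.0109). With the random block 4 of the 6 and 5 of the 8 were called, among them the 3 named in each genotype. Between lean genotypes 0 of the 18 were called. The part of PPARA in the results for the members was not tested.

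PPARG is low in lean liver and rises in fatty liver, where Cd36 is known among its targets. Of 9 PPARG-linked steatosis genes 4 were called higher in WT obese mice, with the smallest adjusted p for Cfd (log2FC 4.34, adjusted p = 1.8e-05), Fitm1 (1.5, adjusted p = 0.0054) and Pparg itself (1.62, adjusted p = 0.0312). In KO obese mice 3 were called higher, Plin4 (2.02, adjusted p = 0.0042), Pparg (2.05, adjusted p = 0.0044) and Cfd (3.01, adjusted p = 0.0328), and Apoa4 was called lower (-1.06, adjusted p = 0.0568). The median log2FC of the list was 1.5 in WT and 0.94 in KO mice, beside 0.0030 and -0.0021 over all genes. Apoa4 was the 1 gene of the list called between lean genotypes, higher in KO mice (1.19, adjusted p = 0.0668), and was not called with the random block (adjusted p = 0.160). With that block Cfd and Fitm1 were called in WT mice and Plin4 and Pparg in KO mice, while Pparg in WT (adjusted p = 0.130) and Cfd and Apoa4 in KO mice (0.101 and 0.144) were not. In the obese genotype comparison and in both RvE1 comparisons 0 genes of any of these lists were called. The part of PPARG in the results for Cd36 was not tested.

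Core clock genes and the clock output factors Dbp, Tef and Hlf were counted as a single list, because a time of day moves many liver genes. Of 15 tested, 2 were called higher and 2 lower in WT obese mice, with the smallest adjusted p for Per3 (log2FC 1.48, adjusted p = 0.0028), Clock (-0.70, adjusted p = 0.0146) and Tef (0.69, adjusted p = 0.0433). In KO obese mice 4 were called higher and 1 lower, with Hlf (0.72, adjusted p = 0.0026), Per2 (1.31, adjusted p = 0.0133) and Per3 (1.11, adjusted p = 0.0305) leading. With the random block 2 were called in WT mice, Per3 and Clock, while Tef was not (adjusted p = 0.104), and 4 in KO mice, among them Hlf, Per2 and Per3. The part of the called clock genes in the results for Fabp5, Cd36 and Fabp1 was not tested.

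The genes most like each called member were found by Pearson correlation of log2 normalized counts over the 14 mice of a diet table. The mice fall into lean and obese groups that such a value partly repeats, so it is a description and has no test. For Fabp5 in WT mice these were Chrna4 (0.946), Fkbp14 (0.934) and Scd1 (0.93), and in KO mice Tff3 (0.966), Apom (0.944) and Tmed5 (0.916). For Cd36 they were Themis (0.95), E330011O21Rik (0.95) and Sytl4 (0.94) in WT mice and 9030617O03Rik (0.932), Cfd (0.924) and Eda (0.915) in KO mice. For Fabp1 in KO mice they were Med6 (0.961), Naa20 (0.951) and Lyrm4 (0.945).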

How the data were processed

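Total RNA libraries (TruSeq Stranded) of whole liver were sequenced by the authors as read pairs, aligned to mm10 with Bowtie2 and counted with featureCounts (Subread), requiring both ends to map. Tool versions and the strandedness of counting were not given in the sources used here. The deposited signal values are normalized counts, reads divided by DESeq2 size factors that the authors set within each table of 14 libraries. Normalized counts of groups were therefore compared only within a table. RPKM values came from the whole reads recovered for each library and are shown over all groups as a description, with no test. Columns of the authors' own fold changes and p-values stand beside them and were not used. All values (100%) were whole reads within 0.1 reads. The log scale with a pseudocount shrinks the changes of low genes.

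Each comparison was tested with limma (3.58.1, R 4.3.3; eBayes with trend, two-sided) on log2(normalized count + 1), for genes whose mean over the 14 libraries reached 5, with Benjamini-Hochberg adjustment over all of them. Interactions were the difference of fold changes, each formed within its table. A repeat check on the 126 pairs of libraries within groups found none alike within sampling noise (smallest chi-square per gene 22.7). Pairs across groups were not checked. The fits were also run on simulated counts, drawn independently for each mouse. That run cannot speak to the correlation of mice within an identifier number. Alternatives were pseudocounts of 0.5 and 4, no filter, TMM, equal totals, a length and GC correction, the identifier number as a random block, edgeR (4.0.16) and DESeq2 (1.42.0) on recovered reads, an adjusted p under 0.05, no fold threshold, and each mouse left out. The block for the lists was added after the data were seen. Gene coordinates came from GENCODE M21 through symbols (98.7% of 19732 names matched).

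The members and all lists were chosen with earlier results of these data known. Text names every member, at most 3 called genes per list and comparison by smallest adjusted p, and the 3 genes most correlated with each member called in a diet comparison. Nothing states that mice came from separate litters or cages. The main fits treat the mice as independent, so their p-values may be too small if mice of the same identifier number are alike.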

Additional observations from a re-analysis of the deposited data

Results flagged for a closer look

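In a group of 7 mice a value was marked when the gap to its neighbour exceeded 0.568 of the group's range. Of 60 groups of values, 10 members in 6 groups, 9 were marked. The cutoff marks about 1 in 20 groups of independent, normally spread values. These counts were not log transformed and the members share mice, so that rate may not hold here. In WT obese mice, Cd36 was highest in 6R (4885 normalized counts, the next 1825), Fabp5 in 22L (100.04, the next 52.8) and Slc27a2 in 22L (55131, the next 40860). In KO lean mice, Fabp7 was lowest in 20R (25.2, the next 99.6), Slc27a4 highest in 20L (1504, the next 1134) and Lpl highest in 9RL (1400, the next 778). In WT obese+RvE1 mice, Fabp7 was highest in 7R (195, the next 109) and Cd36 in 30RL (5073, the next 3622). In KO obese+RvE1 mice, Slc27a4 was highest in 15-2L (1188, the next 1073). These normalized counts come from different tables and are compared only within their group.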

How the results depend on the processing

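Over 2120 values of single members under other settings, 1984 kept their direction and their side of the threshold, 23 lost a call, 17 gained one and 96 changed sign. The 96 belong to 21 results of at most 0.23 in size with all mice, and after the change of sign they had sizes of at most 0.21 and adjusted p of at least 0.586. The Cd36 and Fabp5 calls in both diet comparisons and the Fabp1 call in KO mice held under every setting, with log2 fold changes between -4.14 and -3.75 for Fabp5 and between 1.31 and 1.80 for Cd36 in WT mice. No paired analysis was possible because the labels give no replicate numbers and no pair of groups compared shares more than 1 identifier number, which is 23 in KO obese and KO obese+RvE1 mice. The identifier number was fitted as a random block, and among the members it changed the calls of the lean genotype comparison alone. Each number but 23 stands in 1 group, so that block pairs no mice and cannot separate number from diet or genotype.

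Counts of called members moved as follows, and beyond what is stated the cause was not tested. In the WT diet comparison 3 members were called with the length and GC correction in place of 2, and 2 to 3 with single mice left out. Over all 14012 genes that correction called 555 in place of 532. In the KO diet comparison 4 were called by edgeR and 5 by DESeq2 in place of 3, and 3 to 5 with single mice left out. Over all 14213 genes edgeR called 1545 and DESeq2 1617 in place of 1476. Between lean genotypes 1 was called with equal totals, at the stricter adjusted p of 0.05 and after the length and GC correction, 0 with the random block, and 1 to 4 with single mice left out. Over all 13031 genes 999 were called with equal totals, 514 after the length and GC correction and 3 with the block, in place of 866. Counts over all genes are not given for the stricter adjusted p or for single mice left out. For the diet by genotype difference DESeq2 passed 1 member, and 0 to 3 passed with single mice left out. Over all 13924 genes DESeq2 passed 926 in place of 1. Under equal totals the median over all genes lay at 0.14 in the KO diet comparison and at -0.12 between lean genotypes.

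Values that changed sign, as log2 fold changes, were these. In KO obese against WT obese mice, edgeR gave -0.038 for Fabp2, 0.20 for Fabp5, -0.014 for Slc27a1 and -0.018 for Slc27a2, DESeq2 -0.031, 0.21, -0.0016 and -0.0096 for the same genes, and equal totals -0.0012 for Fabp1, -0.036 for Fabp2, -0.031 for Slc27a2, -0.022 for Slc27a4 and -0.0043 for Slc27a5. There the random block gave -0.0063 for Slc27a2 and the length and GC correction 0.0019 for Fabp5. In WT obese against WT lean mice Fabp7 was 0.0026 with TMM and 0.054 with equal totals, and between lean genotypes Lpl was -0.11 with equal totals. For RvE1 in WT mice Slc27a2 was -0.040 with the block and -0.0029 with the length and GC correction. For RvE1 in KO mice Cd36 was -0.0020 with edgeR and -0.011 with DESeq2. The diet by genotype difference of Cd36 was 0.0021 with the length and GC correction. The RvE1 by genotype difference was 0.014 for Slc27a4 with equal totals, and -0.0073 with edgeR and -0.019 with DESeq2 for Lpl.

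With single mice left out, these ranges crossed 0. In WT obese against WT lean mice they were -0.14 to 0.11 for Fabp7 and -0.039 to 0.075 for Slc27a5, and between lean genotypes -0.20 to 0.14 for Lpl. In KO obese against WT obese mice they were -0.062 to 0.15 for Fabp1, -0.14 to 0.11 for Fabp2, -0.37 to 0.17 for Fabp5, -0.25 to 0.011 for Fabp7, -0.085 to 0.16 for Slc27a1, -0.052 to 0.10 for Slc27a2, -0.032 to 0.076 for Slc27a4 and -0.015 to 0.10 for Slc27a5. For RvE1 in WT mice they were -0.039 to 0.12 for Slc27a2 and -0.0018 to 0.32 for Lpl, and in KO mice -0.27 to 0.029 for Fabp1, -0.088 to 0.25 for Fabp2 and -0.20 to 0.23 for Cd36. The diet by genotype difference ran from -0.34 to 0.15 for Cd36. The RvE1 by genotype difference ran from -0.047 to 0.54 for Fabp5, -0.29 to 0.035 for Fabp7 and -0.011 to 0.39 for Lpl. Counting error weighs most on Fabp5 and Fabp7 in obese mice, which had the lowest normalized counts of the members.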
